A study of Mus musculus with 9 samples.

Results

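The 43 genes described here make, store, break down or take up fatty acids, or are known from fat cells. They were chosen by name, with earlier results of these data known. Each was taken from the count table of 46078 genes as the 1 row of its symbol, or the row with the most counts. All 43 were found, and all 43 were among the 16722 genes kept for testing by edgeR's filterByExpr. The samples were whole ovaries of 5 wild-type (WT) and 4 ERβ knockout (ERβKO) mice, 1 RNA-seq library each, with 12353740 to 18717510 counted fragments per library. All mice were C57BL/6J females of 4 to 20 weeks, an age range given for every experiment and not for these 9 mice alone. In ERβKO mice exon 3 of Esr2, the ERβ gene, was deleted in the germline with a Rosa26-driven Cre, and the WT controls were offspring that carried no Cre. Every sample is labelled untreated. A protocol filed with each sample nevertheless describes a high-fat or matched diet and an ERβ ligand, and no label gives the diet of a mouse. The stage of the estrous cycle was not matched between ovaries.

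A cell builds fatty acids from acetyl-CoA, which acetyl-CoA carboxylases turn into malonyl-CoA and fatty acid synthase assembles into palmitate. Desaturases and elongases then modify the chain, and acyltransferases join fatty acids to glycerol until DGAT enzymes complete triglyceride, which is stored in droplets coated by perilipins. In the ovary, luteal and theca cells keep droplets of cholesterol esters for steroid synthesis, while the fat pad around the ovary consists of fat cells with 1 large triglyceride droplet, and leptin, adiponectin and resistin are hormones of such cells.

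The genes were split by where they are known to be expressed. A fat cell class held 8 genes (Thrsp, Plin4, Cidec, Adipoq, Lep, Retn, Cfd and Adrb3). A shared class held 8 genes that fat cells express strongly and that ovarian steroid-making, endothelial or immune cells can also express (Plin1, Pnpla3, Lipe, Lpl, Cd36, Fabp4, Acvr1c and Cebpa). The other 27 genes formed a general class. It holds genes of most cells together with some that are strong in fat, liver or fat-oxidising cells, such as Dgat2, Acsl1 and Plin5.

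Before the genes are taken up, 3 features of the libraries bear on them. Esr2 itself was counted over its whole length, with 12.4 to 23.9 FPKM in WT and 10.5 to 23.7 FPKM in ERβKO ovaries, and so does not check the genotype. FPKM is a level scaled by the authors to gene length and library depth. Along the first principal component (35.9% of the variance) WT replicate 2 (9.43) was beside the ERβKO ovaries (19.35 to 35.35) and apart from the other WT ovaries (-43.82 to -15.62). ERβKO replicate 1 had the highest level of adipocyte markers: the summed FPKM of 9 adipocyte markers outside the 43 genes was 825 in that ovary, 284 and 252 in ERβKO replicates 2 and 3, and 112 to 208 in the WT ovaries, a range in which ERβKO replicate 4 also lay. Most of that sum was Car3, a carbonic anhydrase abundant in fat cells (80.3% to 89.9% of it in each ovary), and without Car3 it was 83.7, 32.1, 32.2 and 18.0 FPKM in ERβKO replicates 1 to 4 and 14.7 to 24.5 FPKM in WT ovaries. The covariate used below was the mean log2 level of the 8 of these markers that were tested. It was 4.86, 3.62, 3.74 and 2.69 in the ERβKO ovaries and 2.65 to 3.18 in the WT ovaries. By each measure ERβKO replicate 1 was highest and replicate 4 lowest of the knockouts, while the order of replicates 2 and 3 depended on the measure. Of these 9 markers Ucp1, the mark of brown fat, was at 0 in all ovaries but 1 (0.0688 FPKM), and 8 were tested. All 8 had a log2 fold change (log2FC, ERβKO over WT) above 0, with a median of 1.05. It ran from 0.037 for Cidea, which was highest in WT replicate 2, to 1.83 for Tusc5. None of the 8 met the criteria for a differentially expressed gene (DEG), with 5 at an unadjusted p under 0.05 in edgeR and 2 called by DESeq2. In whole-ovary RNA, fewer cells of a type and less RNA per cell cannot be told apart.

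Of the 43 genes, Acacb and Cebpa were higher and Fads6 and Them5 were lower in ERβKO ovaries. A DEG needed an adjusted p under 0.05 (edgeR quasi-likelihood F test, Benjamini-Hochberg over all genes tested), a log2FC beyond 0.4 in either direction and a mean FPKM above 1 in 1 or both genotypes. These 4 calls are 9.30% of the 43 genes, beside 1.72% of all genes tested. The 2 higher stand beside 0.915% and the 2 lower beside 0.801%. Because earlier results were known when the genes were chosen, the shares in this paragraph describe the set and do not test it. At an unadjusted p under 0.05, 18 of the 43 genes were higher (41.9%, all genes 9.81%) and 5 were lower (11.6%, all genes 10.0%). The log2FC was above 0 in 28 of the 43 genes with a median of 0.48, against a median of -0.001 over all genes tested. The tilt was uneven between classes, with medians of 1.17 in the fat cell class, 1.14 in the shared class and -0.091 in the general class. DESeq2 called 12 of the 43 genes, where it called 4.80% of all genes; 9 were higher (all genes 2.24%) and 3 lower (2.56%). ERβKO replicate 1 was the highest of the 9 ovaries for 26 of the 43 genes (60.5%), beside 13.6% of all genes tested, and WT replicate 5 was the highest for 12 (all genes 11.4%). Of the 43 genes 3 (Acacb, Lep and Acvr1c) had all ERβKO values above all WT values and 1 (Fads6) below, where 4.29% and 3.31% of all genes did so.

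**Figure D1:**
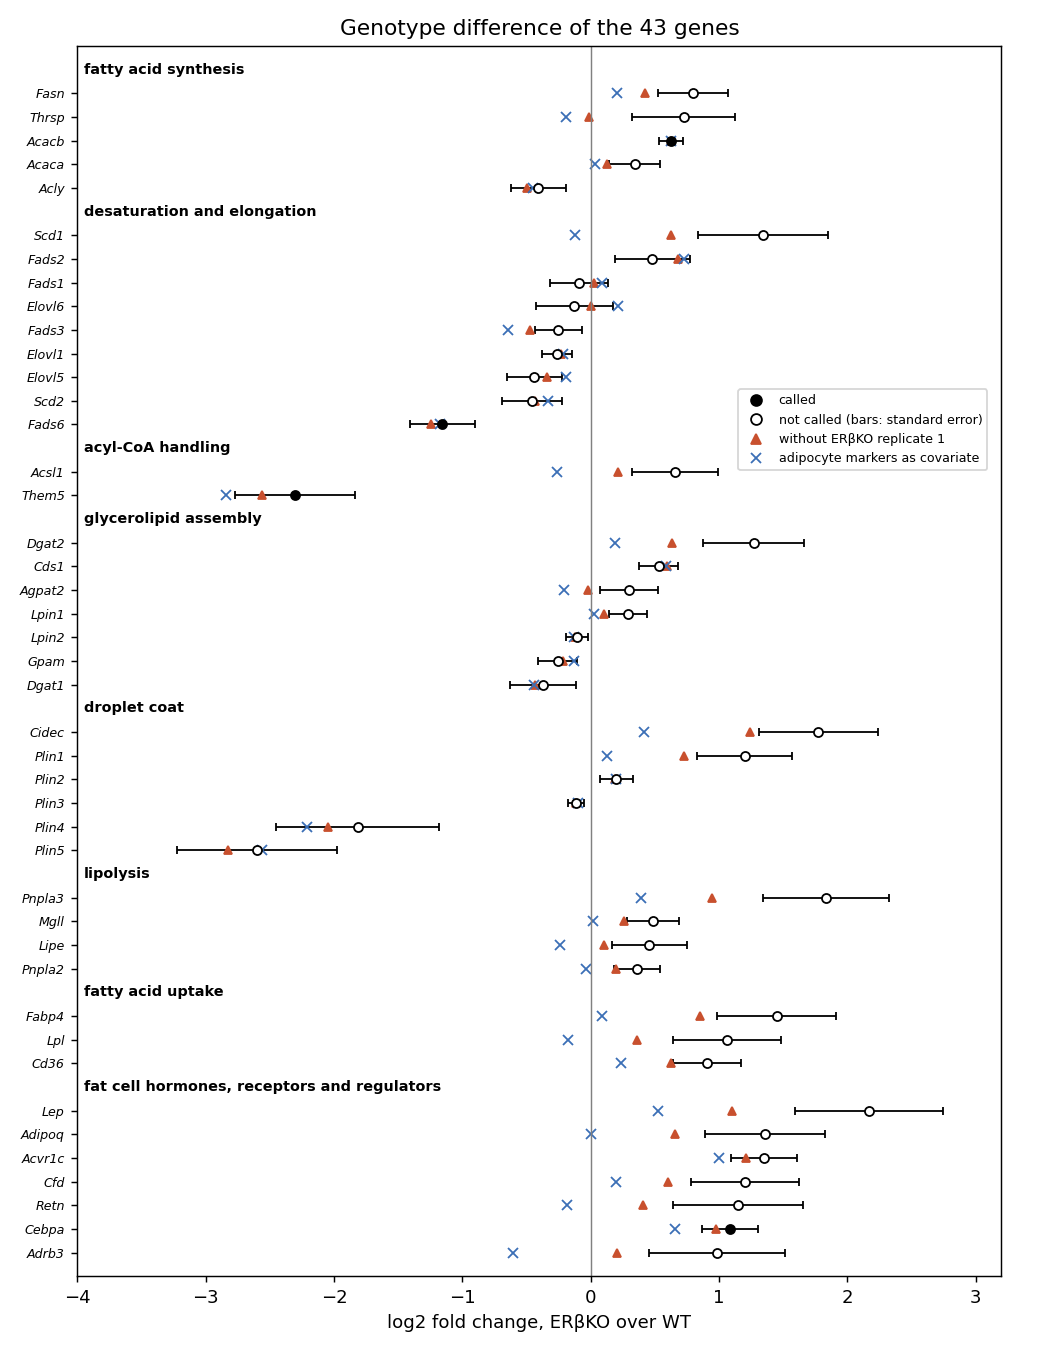
Log2 fold change (ERβKO over WT) of the 43 genes on the x axis, grouped by role, from 5 WT and 4 ERβKO ovaries; circles with bars are the estimate and its standard error, filled for DEGs, triangles the estimate without ERβKO replicate 1 and crosses the estimate with adipocyte markers as a covariate. The 4 filled circles are Acacb, Cebpa, Fads6 and Them5, and with the covariate Adipoq (0.001) lies at about 0, Lep at 0.52 and Adrb3 at -0.61.

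Fatty acid synthesis was represented by 5 genes, of which 1 rose. Acacb (ENSMUSG00000042010, chromosome 5 of GRCm38) encodes the acetyl-CoA carboxylase at the mitochondrial surface, whose malonyl-CoA restrains the entry of fatty acids into mitochondria. In order of replicate number it was at 2.82, 2.23, 3.29, 2.55 and 2.18 FPKM in the WT ovaries and at 4.42, 4.37, 3.73 and 4.26 FPKM in the ERβKO ovaries, the order used throughout. All 4 ERβKO ovaries lay above all 5 WT ovaries, and the ovary rich in adipocyte markers did not stand out. The log2FC was 0.62 (standard error 0.0969; adjusted p = 0.0139 in edgeR), and 0.63 without ERβKO replicate 1. The call was made in 16 of 21 alternatives, whose adjusted p ran from 1.39e-06 to 0.114; it was missed in the other 5, among them the fit without ERβKO replicate 2 (adjusted p = 0.0556) and the fit with the adipocyte markers as a covariate (log2FC 0.62, adjusted p = 0.0592).

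Fasn, fatty acid synthase, showed another arrangement. Its level was 19.4, 21.4, 13.6, 19 and 22.6 FPKM in WT and 57.9, 32.8, 26.1 and 19.4 FPKM in ERβKO ovaries. The first 3 ERβKO ovaries were above the WT range and the last was inside it. The log2FC was 0.80 (standard error 0.272; adjusted p = 0.146 in edgeR, 0.0468 in DESeq2), and 0.43 without ERβKO replicate 1. Thrsp, which encodes the lipogenic protein Spot14, was at 64.7 FPKM in ERβKO replicate 1 and between 12.4 and 22.0 FPKM in the other 8 ovaries. Acaca, the cytosolic acetyl-CoA carboxylase, had a mean of 9.87 ± 1.71 FPKM (SD, n = 5 WT) against 12.7 ± 4.12 (n = 4 ERβKO). Acly, which supplies cytosolic acetyl-CoA, had 68.0 ± 21.0 and 52.2 ± 7.50 FPKM, and neither passed the test (adjusted p = 0.373 and 0.329 in edgeR).

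Among 9 desaturases and elongases 1 fell. Fads6 (ENSMUSG00000044788, chromosome 11) belongs to the family of fatty acid desaturases. It measured 31.0, 13.7, 21.9, 20.2 and 31.3 FPKM in the WT ovaries and 13.3, 7.85, 11.9 and 10.7 FPKM in the ERβKO ovaries. No ERβKO ovary reached the WT range, but WT replicate 2 (13.7) and ERβKO replicate 1 (13.3) nearly met. The log2FC was -1.16 (standard error 0.252, adjusted p = 0.0468 in edgeR). The call was made in 8 of 21 alternatives, DESeq2 among them (adjusted p = 0.000242). It was missed in limma on log2(FPKM + 1) (adjusted p = 0.0718) and with the adipocyte markers as a covariate (adjusted p = 0.196 in edgeR). Of the 9 refits that left out 1 library, 1 kept the call, the one without WT replicate 2 (adjusted p = 0.00888), and the adjusted p over the 9 refits reached 0.138 although the log2FC stayed between -1.31 and -1.02.

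Scd1 and Scd2, which lie on chromosome 19 with 87586 bases between them, both encode stearoyl-CoA desaturases that put the first double bond into stearate. Scd1 was at 77.5, 62.2, 46.1, 107 and 74.6 FPKM in WT and at 418, 197, 108 and 41.1 FPKM in ERβKO ovaries. The first 3 ERβKO ovaries were above every WT ovary and the 4th was below every WT ovary. Scd2 held between 154 and 377 FPKM in WT and between 170 and 205 FPKM in ERβKO ovaries. The ratio of Scd1 to Scd2 was 0.198 to 0.391 in WT ovaries and 2.35, 1.15, 0.526 and 0.227 in ERβKO replicates 1 to 4. Neither gene passed the test (log2FC 1.34 and -0.46; adjusted p = 0.185 and 0.316 in edgeR).

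Fads1 and Fads2 encode the delta-5 and delta-6 desaturases of polyunsaturated fatty acids and are neighbours of Fads3. Fads2 was at 85.2, 65.6, 46.0, 73.6 and 82.8 FPKM in WT and at 57.5, 120, 157 and 70.7 FPKM in ERβKO ovaries, so that the ovary with most adipocyte markers was here the lowest of its group. Fads1 and Fads3 overlapped between the genotypes (log2FC -0.091 and -0.25). The elongases Elovl1, Elovl5 and Elovl6 had log2FC of -0.27, -0.44 and -0.13, each with its highest level in WT replicate 5. None of these 6 genes passed the test in edgeR (adjusted p from 0.242 to 0.863), and DESeq2 called none of them either.

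Acyl-CoA handling was represented by 2 genes. Them5 (ENSMUSG00000028148, chromosome 3), a mitochondrial acyl-CoA thioesterase, was at 1.99, 0.627, 2.61, 3.41 and 2.54 FPKM in WT and at 0.647, 0.390, 0.443 and 0.303 FPKM in ERβKO ovaries. WT replicate 2 lay with the ERβKO ovaries, and the other 4 WT ovaries lay well above them. Them5 had the lowest counts of the 4 DEGs, 18 to 91 per WT library and 7 to 20 per ERβKO library. It fell by 2.31 on the log2 scale (standard error 0.465, adjusted p = 0.0364 in edgeR). Of the 9 refits without 1 library 2 kept the call, those without WT replicate 2 or ERβKO replicate 1 (log2FC over the 9 from -2.56 to -2.09, adjusted p up to 0.125). The call was made in 7 of 20 alternatives, DESeq2 among them (adjusted p = 8.77e-05). It was missed in limma on log2(FPKM + 1) (adjusted p = 0.0666) and with the adipocyte markers as a covariate (adjusted p = 0.0754 in edgeR). Acsl1, the long-chain acyl-CoA synthetase of fat and liver, was at 33.7, 17.9, 15.0 and 6.87 FPKM in the ERβKO ovaries and at 8.54 to 12.6 FPKM in WT ovaries, with no call (adjusted p = 0.309 in edgeR), and 9.91% of its exonic bases also belong to a gene on the opposite strand.

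None of the 7 genes of glycerolipid assembly met the criteria in edgeR. The nearest was Cds1, which diverts phosphatidic acid from triglyceride to phosphatidylinositol and cardiolipin, and which stands in the general class. It was at 4.83, 7.70, 5.29, 6.17 and 4.14 FPKM in WT and at 7.33, 8.86, 8.25 and 8.97 FPKM in ERβKO ovaries. Only WT replicate 2 reached into the ERβKO range. The log2FC was 0.53 (standard error 0.151; adjusted p = 0.0958 in edgeR, 0.0319 in DESeq2, 0.0147 in edgeR without WT replicate 2). Dgat2, which completes triglyceride in fat cells and liver, was at 6.62 to 11.2 FPKM in WT and at 48.6, 20.2, 15.2 and 8.49 FPKM in ERβKO ovaries (log2FC 1.27, adjusted p = 0.117 in edgeR). Dgat1, its counterpart of unrelated sequence, had a log2FC of -0.37 and its highest level in WT replicate 5. Gpam, Agpat2, Lpin1 and Lpin2, which carry out the steps before, had log2FC between -0.26 and 0.30.

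The 6 droplet coat genes showed different patterns, and none was a DEG in edgeR. Plin2 and Plin3, the coat proteins found in most cells, had log2FC of 0.20 and -0.12: Plin3 held 28.5 ± 1.53 FPKM (SD, n = 5 WT) against 27.0 ± 0.461 (n = 4 ERβKO), and Plin2 35.2 ± 6.64 against 41.7 ± 3.41. Plin1 and Cidec, which coat and fuse the large droplets of fat cells, were highest in ERβKO replicate 1. Plin1 was at 5.87, 4.67, 5.86, 5.67 and 3.64 FPKM in WT and at 22.8, 10.1, 11.7 and 3.85 FPKM in ERβKO ovaries. Cidec was at 6.91, 6.63, 10.9, 12.1 and 6.30 FPKM in WT and at 59.4, 20.5, 33.4 and 7.12 FPKM in ERβKO ovaries. In both genes 3 ERβKO ovaries were above all WT ovaries and ERβKO replicate 4 was within the WT range. Their log2FC were 1.20 and 1.77 (adjusted p = 0.119 and 0.0780 in edgeR, 0.0217 and 0.0219 in DESeq2), and 0.12 and 0.41 with the adipocyte markers as a covariate.

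Plin4 and Plin5 were instead highest in WT ovaries. They lie on the same strand of chromosome 17 with 1797 bases between them; Plin5 coats droplets at mitochondria in cells that oxidise fat, and Plin4 is known from fat and muscle cells. Plin5 was at 12.9, 1.89, 2.94, 7.48 and 17.8 FPKM in WT and at 2.04, 1.21, 1.19 and 1.15 FPKM in ERβKO ovaries. Plin4 was at 75.4, 17.6, 16.4, 79.8 and 132 FPKM in WT and at 28.2, 12.3, 26.3 and 9.17 FPKM in ERβKO ovaries. For both genes WT replicates 5, 1 and 4 were the highest, while WT replicates 2 and 3 lay in or near the ERβKO range. Plin5 had a log2FC of -2.60 (standard error 0.621; adjusted p = 0.0588 in edgeR, 0.00247 in DESeq2) and Plin4 of -1.82 (standard error 0.637; adjusted p = 0.155 in edgeR, 0.0897 in DESeq2). Plin4 did not follow the other genes of the fat cell class, since the ovary with most adipocyte markers, ERβKO replicate 1, was only 4th of the 9 ovaries for Plin4.

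**Figure D2:**
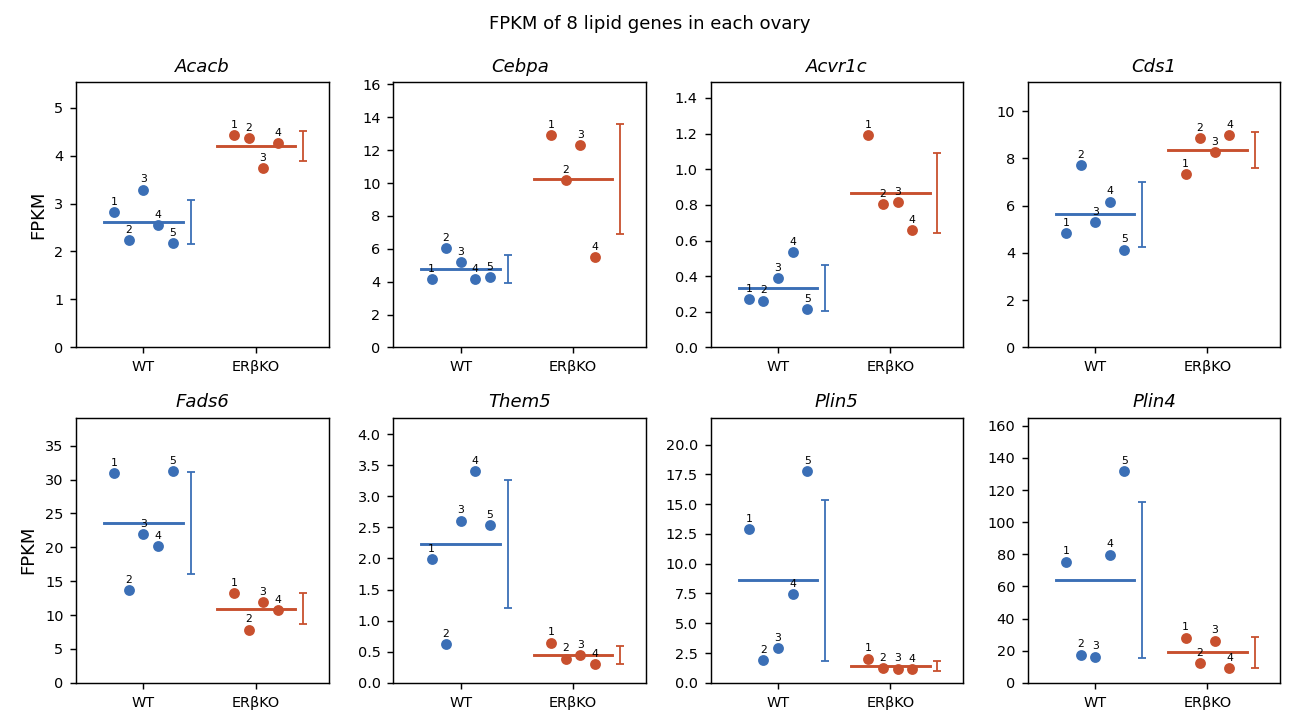
FPKM (linear axes from 0) of 8 genes in each of the 5 WT and 4 ERβKO ovaries; points carry the replicate number, lines are group means and bars the SD. Acacb and Acvr1c separate the genotypes upward and Fads6 downward, WT replicate 2 lies among or near the ERβKO ovaries for Them5, Cds1 and Plin5, and Plin4 and Plin5 are highest in WT replicates 5, 1 and 4.

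Beside Fads6, Plin4 and Plin5 the summed level of 8 luteal markers, such as Star and Cyp11a1 of steroid synthesis, also varied. It was 5870, 2770, 3780, 4000 and 6470 FPKM in WT and 2530, 2560, 3780 and 2700 FPKM in ERβKO ovaries, highest in WT replicates 5 and 1. Most of that sum was Hsd3b1 (1510 to 3490 FPKM in WT, 1640 to 1740 in ERβKO) and Cyp11a1 (872 to 1870 and 608 to 1090). Of the 8 luteal markers 7 had a log2FC below 0, from -0.26 for Lhcgr to -1.91 for Star. The other, Akr1c18, had a log2FC of 1.23 (standard error 1.43), with 1.29 FPKM in ERβKO replicate 1 and 471 FPKM in ERβKO replicate 3. The median of the 8 was -0.84, with 4 lower at an unadjusted p under 0.05 in edgeR (all genes 10.0%). None met the criteria in edgeR, and DESeq2 called 2 lower (all genes 2.56%). The luteal covariate was instead the mean log2 level of the 8 markers. It was 9.98, 8.87, 8.84, 8.97 and 9.98 in WT and 7.48, 7.57, 9.68 and 8.39 in ERβKO ovaries. By that measure ERβKO replicate 3 lay above WT replicates 2, 3 and 4. The mean weighs each marker alike, Akr1c18 among them, which had 80 counts in WT replicate 4 and 10219 in ERβKO replicate 3. No fit left Akr1c18 out of the covariate. With this covariate the log2FC was -0.79 for Fads6, -1.07 for Plin4 and -1.68 for Plin5, none of them past the test. For Them5 it was -2.32 (adjusted p = 0.191 in edgeR). What part luteal tissue had in these differences was not tested beyond these fits. The 7 granulosa markers summed to 474 to 559 FPKM in WT and 579 to 797 FPKM in ERβKO ovaries, with 1 of them, Hsd17b1, a DEG. Most of that sum was Inha (336 to 399 FPKM in WT and 387 to 590 FPKM in ERβKO ovaries). All 7 had a log2FC above 0, from 0.11 to 1.06, with 3 at an unadjusted p under 0.05 in edgeR.

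The sequences before the starts of the 4 DEGs and of the Plin4 and Plin5 pair are shown for the letters they hold. Plin5 has 2 RefSeq starts and both are shown, the second without either motif. They are the RefSeq promoter windows of 250 bases on GRCm38.p6. Each is printed 5′ to 3′ on the gene's strand without bases that GENCODE annotates as exon. The printed stretches of Acacb and of the second start of Plin5 lie within the annotated genes. Capitals mark CCAAT boxes (CCAAT or ATTGG) and the nuclear receptor motif AGGTCA (or TGACCT), searched on both strands.
Fads6 (chr11:115297664-115297812, minus strand): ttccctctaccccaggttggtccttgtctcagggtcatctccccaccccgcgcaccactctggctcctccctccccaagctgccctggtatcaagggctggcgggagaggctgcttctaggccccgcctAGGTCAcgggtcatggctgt
Them5 (chr3:94341849-94342098, plus strand): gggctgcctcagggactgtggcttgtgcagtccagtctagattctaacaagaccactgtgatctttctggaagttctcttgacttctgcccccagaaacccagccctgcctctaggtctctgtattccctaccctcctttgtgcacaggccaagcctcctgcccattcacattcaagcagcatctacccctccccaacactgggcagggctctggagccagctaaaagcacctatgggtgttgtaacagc
Acacb (chr5:114165268-114165508, plus strand): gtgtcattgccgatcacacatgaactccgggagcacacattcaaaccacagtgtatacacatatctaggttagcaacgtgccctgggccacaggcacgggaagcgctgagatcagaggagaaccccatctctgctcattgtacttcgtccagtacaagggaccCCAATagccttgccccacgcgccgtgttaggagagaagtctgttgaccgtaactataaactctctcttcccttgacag
Cebpa (chr7:35119043-35119292, plus strand): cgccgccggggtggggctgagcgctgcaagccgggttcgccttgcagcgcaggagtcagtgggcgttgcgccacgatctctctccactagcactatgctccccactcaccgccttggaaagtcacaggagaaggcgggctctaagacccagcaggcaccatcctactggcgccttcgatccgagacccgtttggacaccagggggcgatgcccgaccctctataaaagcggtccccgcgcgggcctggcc
Plin4 (chr17:56109804-56110032, minus strand): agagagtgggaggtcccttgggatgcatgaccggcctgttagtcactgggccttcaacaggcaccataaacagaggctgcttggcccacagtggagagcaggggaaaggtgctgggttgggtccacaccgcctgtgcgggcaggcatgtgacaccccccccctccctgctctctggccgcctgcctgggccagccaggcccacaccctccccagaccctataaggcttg
Plin5, first start (chr17:56117597-56117798, minus strand): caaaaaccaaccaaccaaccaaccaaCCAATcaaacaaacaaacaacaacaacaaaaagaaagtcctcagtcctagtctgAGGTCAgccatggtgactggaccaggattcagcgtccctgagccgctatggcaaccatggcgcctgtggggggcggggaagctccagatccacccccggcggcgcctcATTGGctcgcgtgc
Plin5, second start (chr17:56117299-56117501, minus strand): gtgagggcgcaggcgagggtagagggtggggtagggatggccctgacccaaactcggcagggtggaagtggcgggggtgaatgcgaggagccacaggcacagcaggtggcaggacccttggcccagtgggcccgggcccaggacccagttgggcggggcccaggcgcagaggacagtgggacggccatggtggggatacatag
The motifs were counted over the 45 full windows of the 35 genes found in the RefSeq table (Scd1, Scd2, Fads1, Dgat1, Dgat2, Lpl, Fabp4 and Adrb3 were not matched). CCAAT stood in 16 of the 45 windows (35.6%) and in 33.8% of all 32851 promoters. Plin4 is among the 16, with its match in or across the exonic bases left out of the printed stretch. AGGTCA stood in 9 of the 45 (20%), Fads6 and the first start of Plin5 among them, and in 14% of all. The full palindromic estrogen response element (0.0639% of all promoters) and the NR5A motif TCAAGGTCA (0.387%), which contains AGGTCA, matched none of the 45. The C/EBP motif TTGCNNAA matched 1 window each of Cidec, Lep, Lpin2 and Plin1 (8.89% of the 45, 9.56% of all), the E-box CACGTG matched 1 each of Elovl5, Lipe, Lpin2 and Mgll (8.89% and 6.02%), and the sterol response motif TCACNCCAC matched Acsl1 (2.22% and 1.05%). A match of letters is a description and does not show a bound factor.

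The 4 genes of lipolysis all had a log2FC above 0 and none was called by edgeR. Pnpla3, a lipase relative that lipogenic signals induce, was at 1.23, 1.07, 1.43, 1.5 and 1.10 FPKM in WT and at 11, 3.63, 2.26 and 1.27 FPKM in ERβKO ovaries (log2FC 1.83, adjusted p = 0.0817 in edgeR, 0.0223 in DESeq2). ERβKO replicates 1 to 3 were above the WT range and replicate 4 was inside it. Pnpla2, which encodes the first triglyceride lipase, Lipe, the hormone-sensitive lipase, and Mgll, which splits monoglycerides, had log2FC of 0.36, 0.46 and 0.48. Of the exonic bases of Lipe 15.6% also belong to a gene on the opposite strand, and the sources used here do not say whether reads were counted by strand.

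Fatty acid uptake was represented by Lpl, the lipase that frees fatty acids at the vessel wall, Cd36, which takes them up, and Fabp4, which carries them in fat cells, endothelium and macrophages. Cd36 was at 20.1, 24.5, 24.4, 28.9 and 15.4 FPKM in WT and at 67.1, 40.9, 41.3 and 22.3 FPKM in ERβKO ovaries. Fabp4 was at 67.9, 67.2, 122, 112 and 50.8 FPKM in WT and at 482, 183, 211 and 62.4 FPKM in ERβKO ovaries. Lpl was at 28.1 to 43.6 FPKM in WT and at 164, 69.6, 43.1 and 24.5 FPKM in ERβKO ovaries. All 3 genes were highest in ERβKO replicate 1 and lowest of their group in ERβKO replicate 4. Their log2FC were 0.90 for Cd36, 1.45 for Fabp4 and 1.06 for Lpl (adjusted p = 0.101, 0.126 and 0.202 in edgeR), and 0.24, 0.085 and -0.18 with the adipocyte markers as a covariate. The summed levels of 6 endothelial and 5 macrophage markers overlapped between the genotypes, with 66.8 to 81.5 against 68.1 to 79.4 FPKM and 136 to 260 against 160 to 291 FPKM. Of the endothelial markers Vwf alone did not overlap, at 1.3 to 1.95 FPKM in WT and 2.22 to 2.98 FPKM in ERβKO ovaries. Its log2FC was 0.54 (adjusted p = 0.0522 in edgeR, 0.0033 in DESeq2), and the other 5 were below 0. Most of the macrophage sum was Lyz2 (108 to 208 FPKM in WT and 124 to 243 FPKM in ERβKO ovaries).

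The last 7 genes are hormones, receptors and a regulator known from fat cells, and all 7 were highest in ERβKO replicate 1. Cebpa (ENSMUSG00000034957, chromosome 7), a transcription factor of fat cell differentiation that granulosa cells also use, rose. It was at 4.18, 6.04, 5.18, 4.18 and 4.28 FPKM in WT and at 12.9, 10.2, 12.3 and 5.51 FPKM in ERβKO ovaries. ERβKO replicates 1 to 3 were clear of the WT range and ERβKO replicate 4 was inside it. The log2FC was 1.09 (standard error 0.218; adjusted p = 0.0363 in edgeR), 0.97 without ERβKO replicate 1 and 0.65 with the adipocyte markers as a covariate (adjusted p = 0.227 in edgeR). The call was made in 9 of 21 alternatives, 3 of them among the 9 refits without 1 library (those without WT replicate 2, WT replicate 3 or ERβKO replicate 4).

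Acvr1c encodes ALK7, a type I receptor for activins and related ligands that fat cells and ovarian cells make. Its level was 0.270, 0.263, 0.387, 0.533 and 0.217 FPKM in WT and 1.19, 0.804, 0.814 and 0.659 FPKM in ERβKO ovaries, with no overlap. Its log2FC was 1.35 (standard error 0.259; adjusted p = 0.0317 in edgeR), but the mean of 0.866 FPKM in ERβKO ovaries missed the level that a DEG needed. Without ERβKO replicate 1 the log2FC was 1.21, and with the adipocyte markers as a covariate it was 1.00 (adjusted p = 0.0632 and 0.138 in edgeR). The adjusted p was under 0.05 in 9 of 21 alternatives, 3 of them among the 9 refits without 1 library (those without WT replicate 2, 3 or 4), and was 0.121 with the replicate number as a block and 0.170 with the luteal covariate.

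Adipoq, Lep, Retn, Cfd and Adrb3 are the genes of this set known chiefly from fat cells: the hormones adiponectin, leptin and resistin, the secreted protease adipsin, and the β3-adrenergic receptor that starts lipolysis. Adipoq was at 18.6, 18.2, 33.7, 38.9 and 20.7 FPKM in WT and at 150, 47.8, 56.9 and 20.2 FPKM in ERβKO ovaries. Cfd was at 29.8, 33.8, 60.9, 69.0 and 44.5 FPKM in WT and at 228, 57.1, 107 and 52.8 FPKM in ERβKO ovaries. Within WT, replicates 3 and 4 were the highest for both genes, and these were also the WT ovaries with the highest adipocyte marker sums (163 and 208 FPKM), though not without Car3, where WT replicate 2 was highest (24.5 FPKM). Retn was at 8.52, 8.11, 10.5, 22.5 and 10.5 FPKM in WT and at 60.2, 25.9, 13.9 and 8.41 FPKM in ERβKO ovaries. Adrb3 was at 0.887 to 2.14 FPKM in WT and at 6.40, 2.07, 1.99 and 0.579 FPKM in ERβKO ovaries, and 24.9% of its exonic bases also belong to a gene on the opposite strand. Lep alone of the 5 did not overlap, since its lowest ERβKO ovary (2.30 FPKM) was just above its highest WT ovary (2.28 FPKM). None of the 5 passed the test (log2FC 0.98 to 2.17, adjusted p from 0.0804 to 0.335 in edgeR), and DESeq2 called Lep (adjusted p = 0.0205).

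**Figure D3:**
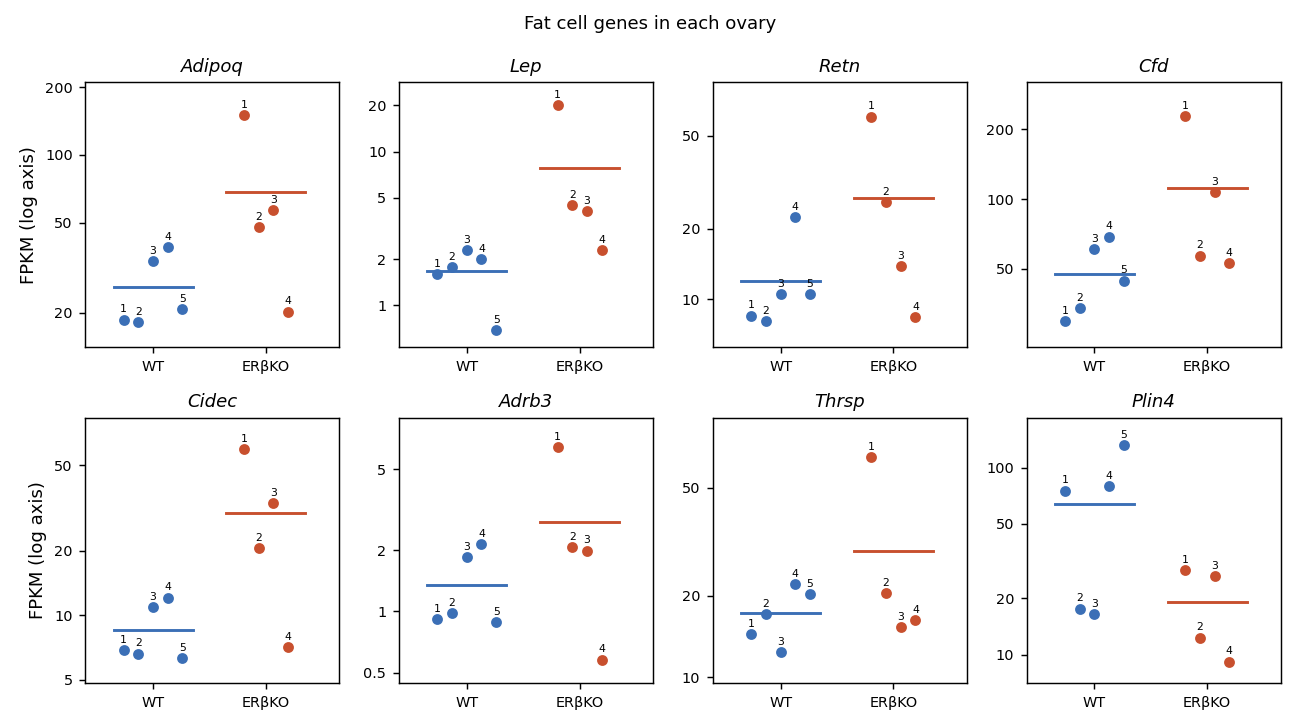
FPKM (log axes) of the 8 genes of the fat cell class in each of the 5 WT and 4 ERβKO ovaries; points carry the replicate number and lines are group means. ERβKO replicate 1 is the highest ovary in 7 of 8 genes, ERβKO replicate 4 lies within the WT range for Adipoq (20.2 FPKM), and Plin4 is highest in WT replicate 5 (132 FPKM).

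By class, leaving out ERβKO replicate 1 or adding the adipocyte covariate moved the medians to unlike degrees. In the fat cell class 7 of 8 genes had a log2FC above 0, 5 were higher and 1 lower at an unadjusted p under 0.05, and none was a DEG. Its median log2FC of 1.17 was 0.50 without ERβKO replicate 1 and -0.093 with the adipocyte markers as a covariate. In the shared class all 8 genes were above 0 and all 8 were highest in ERβKO replicate 1, with 1 DEG, and the median of 1.14 was 0.79 without that ovary and 0.18 with the covariate. In the general class 13 genes were above and 14 below 0, with 1 DEG higher and 2 lower. ERβKO replicate 1 was the highest ovary in 11 of 27, and the median of -0.091 was 0.002 without it and -0.13 with the covariate. Of all 16722 genes tested 8337 were above 0, and 9.81% were higher and 10.0% lower at an unadjusted p under 0.05. Of these genes 0.915% were DEGs higher and 0.801% lower, and 13.6% were highest in ERβKO replicate 1.

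The FPKM ratio of ERβKO replicate 1 to replicate 4, the ovaries with most and least adipocyte marker RNA among the knockouts, was compared within the genotype after these values had been seen. Over all genes tested its median was 1.02, with 0.644 and 1.76 at the 5 and 95 percentiles. The adipocyte markers outside the 43 genes had a median of 6.17, from 1.15 for Cidea and 2.38 for Slc2a4 to 8.11 for Tusc5. In the fat cell class the ratio ran from 3.08 for Plin4 to 11.1 for Adrb3, and its median was 7.29. The shared class ran from 1.81 for Acvr1c and 2.34 for Cebpa to 8.66 for Pnpla3. The general class had a median of 1.39, but Scd1 (10.2), Dgat2 (5.72), Acsl1 (4.90) and Fasn (2.99) were well above it, and Acacb (1.04), Cds1 (0.817) and Plin2 (0.993) were near 1. The ratio compares 2 ovaries of 1 genotype and has no test.

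**Figure D4:**
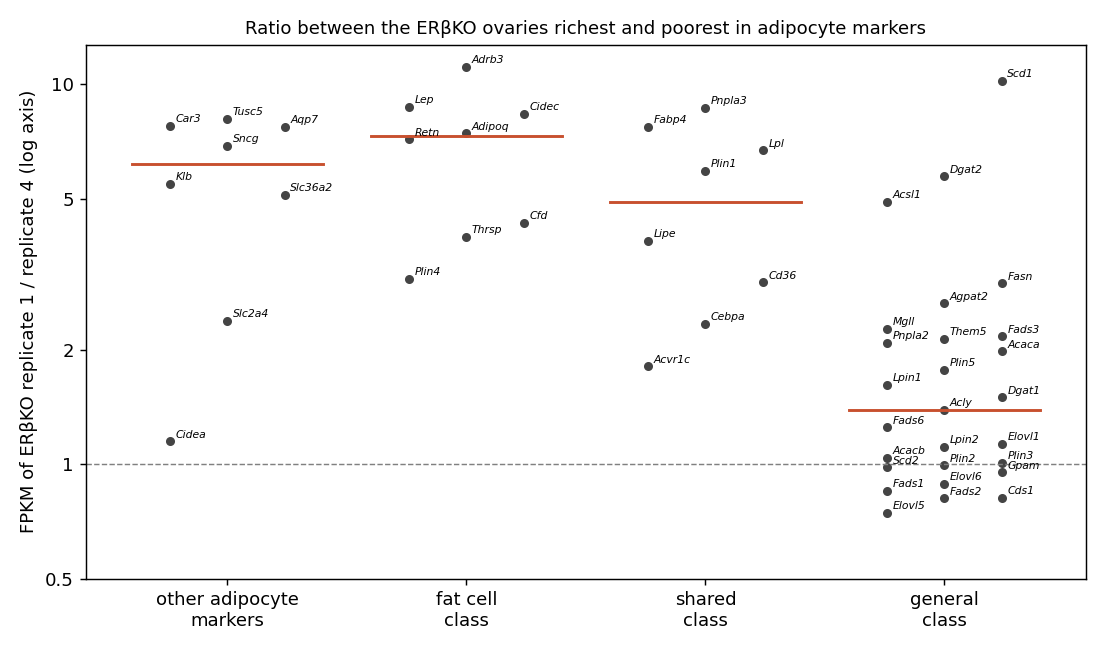
FPKM ratio of ERβKO replicate 1 over replicate 4 (log axis), 1 point per gene, for adipocyte markers outside the 43 genes and for the 3 classes; lines are medians (6.17, 7.29, 4.89 and 1.39) and the dashed line is a ratio of 1. Scd1, Dgat2 and Acsl1 of the general class lie among the fat cell genes, and Acacb lies at 1.04.

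Other genes of lipid metabolism were read from 6 lists of 77 genes, of which 74 were tested. Elovl2, an elongase of very long polyunsaturated fatty acids, rose (0.769 to 1.63 FPKM in WT and 1.67 to 5.29 FPKM in ERβKO ovaries, log2FC 1.69, adjusted p = 0.0317 in edgeR). Idh1, which makes NADPH, Acsl4, the arachidonate-preferring acyl-CoA synthetase, and Lpin3, a phosphatidate phosphatase, fell (log2FC -1.41, -1.36 and -0.66; adjusted p = 0.0380, 0.0460 and 0.0420 in edgeR). The 1 higher of 74 stands beside 0.915% of all genes tested and the 3 lower beside 0.801%, and at an unadjusted p under 0.05 there were 10 higher and 15 lower of the 74 (all genes 9.81% and 10.0%). Of the 9 refits without 1 library, 3 kept the call of Elovl2 and 2 each kept Idh1, Acsl4 and Lpin3. These 4 DEGs separated the genotypes without overlap, as 4 of the 74 genes did above and 7 below the WT range; all genes tested did so in 4.29% and 3.31%. Idh1 was at 450, 213, 271, 333 and 592 FPKM in WT and at 140, 109, 173 and 149 FPKM in ERβKO ovaries, with WT replicates 5 and 1 highest, as for Plin5 and the luteal markers. The median log2FC over the 74 genes was -0.002. The lists, too, were chosen with earlier results of these data known.

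None of 11 regulators of lipogenesis was a DEG, with 2 at an unadjusted p under 0.05 in edgeR and none called by DESeq2, and their median log2FC was 0.062. Srebf1, the sterol-regulated activator of lipogenic genes, was at 8.48 to 12 FPKM in WT and 10.8 to 15.7 FPKM in ERβKO ovaries (log2FC 0.31, adjusted p = 0.227 in edgeR). Pparg, the master factor of fat cells, which granulosa cells also express, was at 7.94 to 13.9 FPKM and 10.6 to 16.1 FPKM (log2FC 0.075). Of 14 genes of fatty acid oxidation none was a DEG in edgeR, with 1 higher and 3 lower at an unadjusted p under 0.05 and 1 called lower by DESeq2, and of 17 droplet and lipolysis cofactors none was a DEG in edgeR, with 3 higher and 3 lower at that level and 2 called higher and 1 lower by DESeq2. Over all genes tested 9.81% were higher and 10.0% lower at that level.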

How the data were processed

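RNA-seq libraries of polyadenylated RNA, prepared by the authors with a stranded kit from snap-frozen whole ovaries of 9 mice (5 WT, 4 ERβKO), were analysed from the deposited tables. Per the study's methods and the submitters' processing notes, the authors trimmed reads with Trim Galore, mapped them to GRCm38 (mm10) with STAR and made the deposited raw counts per gene with featureCounts, without normalization; the strand setting of the counting is not given in the sources used here. The authors obtained the deposited FPKM from StringTie, scaled to gene length and to the mapped fragments of each library. TPM and coverage columns, which the authors also took from StringTie, were not used. Replicates were not pooled.

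Counts were filtered with filterByExpr, TMM-normalized and tested with edgeR 4.0.16 (quasi-likelihood F test, genotype as the only term, Benjamini-Hochberg over 16722 genes) in R 4.3.3, with DESeq2 1.42.0 and limma 3.58.1 (log2 of FPKM + 1 or + 0.1) as alternatives. The common biological coefficient of variation was 0.179. Standard errors were derived from the log2 fold change and its F statistic. The thresholds (0.05, 0.4 and 1 FPKM) are those of the study. Scripts were tested on simulated counts. Other alternatives were other scaling factors, other count filters (none, or at least 10 counts throughout) and a block for the replicate number. Further ones were omission of single libraries, restriction to libraries numbered below 200, and a marker covariate. The covariate was the mean log2 level of the 8 adipocyte markers that were tested, or of the 8 luteal markers. The comparison was WT against ERβKO; no set test was run. Every one of the 43 genes is accounted for, by role and class. The genes, classes and lists were chosen with earlier results of these data known. Depth limits genes of low count such as Them5. Gpat3 and Gpat4 of the lists appear under older symbols (Agpat9, Agpat6). Promoters and motifs came from RefSeq windows on GRCm38.p6, exons and overlaps from GENCODE.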

Additional observations from a re-analysis of the deposited data

Results flagged for a closer look

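In 6 of 86 groups (43 genes in 2 genotypes) a single ovary stood apart from the rest of its genotype by Dixon's test at the 95% level, which chance alone gives in about 1 of 20 groups. Among ERβKO ovaries it was replicate 1 in all 4 cases: Thrsp was at 64.7 FPKM against 15.3 to 20.5 in the other 3 ovaries, Lep at 20.1 against 2.30 to 4.51, Lpin1 at 8.26 against 5.07 to 5.42, and Plin5 at 2.04 against 1.15 to 1.21. The same ovary had the highest sum of the adipocyte markers outside the 43 genes (825 FPKM), whose part in these values was not tested. Among WT ovaries it was replicate 4 in both cases: Mgll was at 15.4 FPKM against 10.5 to 11.5, and Retn at 22.5 against 8.11 to 10.5. WT replicate 4 had the highest adipocyte marker sum of the WT ovaries (208 FPKM, the others 112 to 163).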

How the results depend on the processing

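Among the 43 genes, edgeR called 2 higher and 2 lower. DESeq2 called 9 higher and 3 lower; limma called 1 higher (Acacb) and 0 lower with either pseudocount; at least 10 counts in every library, which left Them5 untested, gave 1 lower (Fads6). With a covariate for adipocyte or for luteal markers, and with only the libraries numbered below 200 (without WT replicates 4 and 5), 0 were called higher and 0 lower. Replicates left out in turn gave 0 (without ERβKO replicate 2) to 4 higher (without ERβKO replicate 4) and 0 to 3 lower (without WT replicate 2). In the lipid lists, 1 higher and 3 lower became 3 and 8 with DESeq2, 0 and 0 with limma, the libraries below 200 or the luteal covariate, 0 lower with the adipocyte covariate, and 0 to 2 higher and 0 to 7 lower (7 without WT replicate 2) when single libraries were left out. Leaving out both WT replicate 2 and ERβKO replicate 1, chosen after seeing the data, gave 2 higher and 7 lower in the lists and 3 and 3 of the 43 genes. The number of DEGs among all genes moved between the fits as well. It was 287 in edgeR, 802 with DESeq2, and 191 or 203 with limma. It was 129 with the adipocyte covariate, 37 with the luteal covariate and 51 with the libraries numbered below 200. It was 60 without ERβKO replicate 2, 80 without ERβKO replicate 4 and 912 without WT replicate 2. The cause of these shifts was not tested. The log2FC of Scd1 (-0.13), Lpl (-0.18) and Retn (-0.19) reversed with the adipocyte covariate; over all 43 genes it fell from above to below 0 in 9, Adrb3 (0.98 to -0.61) and Acsl1 (0.66 to -0.27) among them, and rose from below to above 0 in 2 (Elovl6 and Fads1). Single refits were counted for the 23 genes at an unadjusted p under 0.05. Of 83 refits of the 4 DEGs 40 kept the call and 43 lost it. Of 399 refits of the other 19 genes 380 made no call and kept the direction, 16 made a call and 3 reversed. With the replicate block, 0 of the 43 genes were called higher and 1 lower (Fads6), and in the lists 1 higher (Elovl2) and 1 lower (Idh1); same-numbered ovaries did not deviate together (correlations 0.095, 0.13, -0.043 and -0.011), so the number was not taken as a pairing. With 7 to 91 counts, Them5 is the call most limited by depth.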
